A study of Homo sapiens with 6 samples.

Results

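The genes described here are 10 of the 19775 genes read on these arrays: the metalloproteinase inhibitor genes TIMP1, TIMP2, TIMP3, TIMP4 and RECK, and the matrix metalloproteinase genes MMP1, MMP2, MMP9, MMP10 and MMP14. They were chosen by gene symbol, TIMP2, TIMP3 and RECK because they are reported targets of miR-221 and miR-222 and the proteases because the inhibitors block them. All 10 were measured, by 24 probe sets in all, a probe set being a group of short probes for 1 transcript. The cells were MCF10A, an established non-tumorigenic human mammary epithelial line. They received by transfection either a miR-221 and miR-222 mimic (the mimic arrays) or a control microRNA (the control arrays), with 3 biological replicates per group and 1 array for each. The labels give no dose, no time after transfection and no sequence for the control, and do not say whether replicates were separate transfections. The spread between replicates may therefore be partly technical.

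Matrix metalloproteinases are zinc enzymes that cut collagens, laminins and other proteins outside the cell. Most are secreted as inactive precursors, whereas the MMP14 enzyme is anchored in the cell membrane, where it helps to activate the MMP2 precursor in a complex that includes TIMP2. The TIMP proteins are secreted inhibitors that block the active site of these enzymes, and RECK is a membrane-anchored inhibitor. In mammary epithelium these proteins take part in the remodelling of the basement membrane.

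The microRNAs miR-221 and miR-222 are printed because TIMP2, TIMP3 and RECK were listed as their targets. The mature sequences were taken from RefSeq (GRCh38.p14), on the minus strand at chrX:45746180-45746202 for miR-221-3p and at chrX:45747036-45747056 for miR-222-3p. Capitals mark the seed, bases 2 to 8, which does most of the pairing with target messenger RNAs.
hsa-miR-221-3p: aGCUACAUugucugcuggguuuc
hsa-miR-222-3p: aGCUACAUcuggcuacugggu
Both share the seed, and their first 8 bases are identical. The labels do not say which strands the mimic held.

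Values are log2 intensities per probe set, so a difference of 1 is a 2-fold change. Array medians lay between 7.59 and 7.66, and within a group any 2 arrays had a correlation of 0.9953 to 0.998 across probe sets, which are not independent replicates. RNA integrity was read from ACTB: its 3' control probe set exceeded its 5' one by 0.33 to 0.39 (log2) in mimic arrays and by 0.29 to 0.36 in control arrays. For GAPDH the same difference ran from 0.02 to 0.04 in mimic arrays and from -0.05 to 0.02 in control arrays, and every mimic value lay above every control value. The part of RNA integrity in the results below was not tested. Among 11 listed markers of mammary epithelium, 7 were measured. KRT14, KRT5, EPCAM, ITGB4, CDH3 and CDH1 fell and LAMB3 rose, with a lowest mean over all arrays of 9.43. The log2 of their mean intensity ran from 11.46 to 11.55 in mimic arrays and from 12.51 to 12.60 in control arrays. By the limma test given below, 16.3% of all genes fell and 14.1% rose. In bulk RNA, fewer cells expressing a gene and less of its RNA per cell cannot be told apart.

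Of the 10 genes, 6 changed between mimic and control, in both directions. TIMP2 and MMP10 rose, whereas TIMP1, TIMP3, MMP2 and MMP14 fell. TIMP4, MMP1 and MMP9 did not pass the test, and RECK gave different results on different probe sets. By limma with Benjamini-Hochberg adjustment over all probe sets, 30.4% of all genes changed, 14.1% higher and 16.3% lower. The balance of that background depends on the scaling: 2780 genes were higher and 3233 lower, against 3418 and 3027 after quantile normalization again, and 2303 and 3423 with arrays centred on their medians. The median log2 difference of the 10 genes was 0.03, the same to 2 decimals as that of all genes (0.03). The groups did not overlap for the same 6 genes, 4 of them with the mimic arrays below, against 45.6% of all genes, 23.7% above and 21.9% below. TIMP3, MMP2 and MMP10 changed at least 1.5-fold, which 8.71% of all genes did, and MMP10 changed at least 2-fold, which 3.05% of all genes did.

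**Figure D1:**
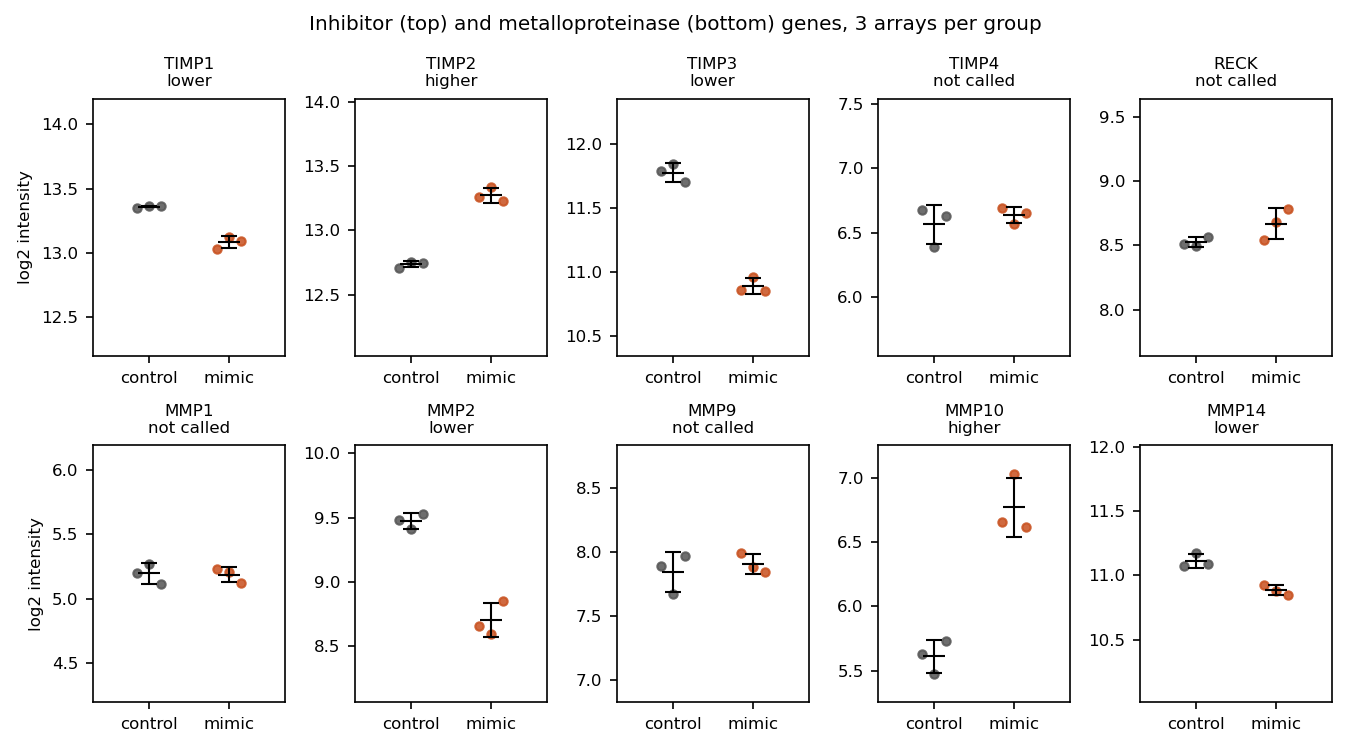
Log2 intensity (vertical axis, spanning 2 units in every panel) of each gene at its brightest probe set in the 3 control (grey) and 3 mimic (orange) arrays; black bars are the mean ± SD. The groups do not overlap for TIMP1, TIMP2, TIMP3, MMP2, MMP10 and MMP14, and MMP10 shows the largest shift, with a log2 difference of 1.16.

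TIMP3, an inhibitor that binds to the extracellular matrix and also blocks several ADAM and ADAMTS proteases, fell most among the inhibitor genes. Its brightest probe set read 10.86, 10.96 and 10.86 in the mimic arrays and 11.79, 11.84 and 11.70 in the control arrays. Every mimic array lay below every control array. The means were 10.89 ± 0.06 and 11.77 ± 0.07 (SD, n = 3 each), which is 1.84-fold higher in the control (limma adjusted p = 2.35e-06). The other 3 TIMP3 probe sets also fell, with log2 differences of -0.42, -0.30 and -0.29. All 4 passed the threshold under each of 12 other settings of the fit.

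TIMP2, the inhibitor that also takes part in MMP2 activation, rose. Its brightest probe set read 13.26, 13.34 and 13.22 in the mimic arrays and 12.71, 12.75 and 12.75 in the control arrays, without overlap. The mimic mean was 1.45-fold higher (log2 difference 0.54 ± 0.06, SE; limma adjusted p = 5.86e-05). A second probe set, 231579_s_at, rose by 0.49. The other, 203167_at, read 10.53 ± 0.04 against 10.35 ± 0.03 (SD, n = 3 each) and did not pass (log2 difference 0.18, limma adjusted p = 0.0528), although its groups did not overlap and it was called higher under 5 of 12 other settings (adjusted p from 0.00504 to 0.155). The source record listed for 203167_at is a RefSeq transcript of TIMP2, and those of the other TIMP2 probe sets are not.

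RECK, the membrane-anchored inhibitor, was read by 5 probe sets. The brightest, 216153_x_at, read 8.54, 8.68 and 8.79 in the mimic arrays and 8.51, 8.49 and 8.57 in the control arrays, and the groups overlapped. Its log2 difference of 0.14 (95% interval -0.02 to 0.30) did not pass (limma adjusted p = 0.193). The suffix x_at marks a probe set whose probes may also match other transcripts.

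The probe set 205407_at, the single RECK probe set listed with a RefSeq transcript of the gene, showed another picture. It read 6.45, 6.58 and 7.03 in the mimic arrays and 7.68, 7.48 and 7.52 in the control arrays. All mimic arrays lay below the control arrays, with mimic replicate 3 nearest to them. The mean was 1.83-fold higher in the control (log2 difference -0.87 ± 0.13, SE; limma adjusted p = 0.000381), and the call held under the 11 other settings that kept this probe set. The remaining 3 RECK probe sets had log2 differences from -0.09 to -0.01 and did not pass. Without mimic replicate 1 the brightest probe set was called higher (0.21, adjusted p = 0.0459), as it was with array weights (0.16, adjusted p = 0.0486); over all alternatives the adjusted p for RECK ran from 0.000381 to 0.471.

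**Figure D2:**
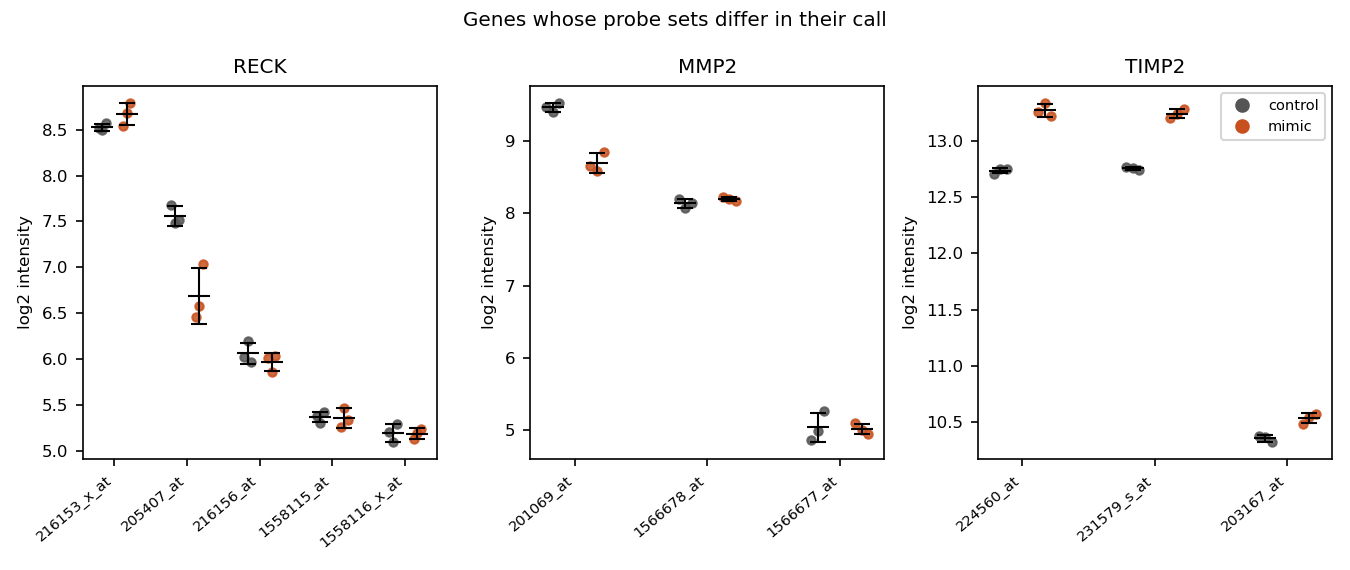
Log2 intensity (vertical axis) of every probe set (horizontal axis) of RECK, MMP2 and TIMP2 in the 3 control (grey) and 3 mimic (orange) arrays, with mean ± SD. The groups separate at RECK 205407_at (log2 difference -0.87) and MMP2 201069_at (-0.77) and overlap at the other probe sets of RECK and MMP2, while at all 3 TIMP2 probe sets the mimic arrays lie above, by 0.54, 0.49 and 0.18.

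TIMP1, an inhibitor of most soluble metalloproteinases, fell by a small amount. It read 13.03, 13.12 and 13.10 in the mimic arrays and 13.35, 13.37 and 13.36 in the control arrays, without overlap. The control mean was 1.21-fold higher (log2 difference -0.28 ± 0.06, SE; limma adjusted p = 0.00512). In the control arrays 99.3% of probe sets were dimmer than that of TIMP1. TIMP4 read 6.69, 6.57 and 6.65 in the mimic arrays and 6.67, 6.39 and 6.63 in the control arrays. Its groups overlapped, and the 95% interval of the log2 difference ran from -0.11 to 0.26. TIMP4 lay below the array medians, and whether it was expressed is not known, since no detection calls were used.

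MMP10, also called stromelysin-2, rose most among the 10 genes. It read 6.66, 7.03 and 6.62 in the mimic arrays and 5.63, 5.47 and 5.73 in the control arrays. Every mimic array lay above every control array, and mimic replicate 2 was the highest. The means were 6.77 ± 0.23 and 5.61 ± 0.13 (SD, n = 3 each), a 2.23-fold rise (limma adjusted p = 1.33e-05). Both means lay below the array medians, and the control mean was brighter than that of 13.4% of probe sets. Whether the control level was above background is not known. How any background left in these dim values affected the size of the rise was not tested.

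MMP2, a gelatinase that cuts collagen IV of basement membranes, fell on 1 of its 3 probe sets. The brightest, 201069_at, read 8.66, 8.60 and 8.85 in the mimic arrays and 9.48, 9.41 and 9.53 in the control arrays. These groups did not overlap, and the control mean was 1.71-fold higher (log2 difference -0.77 ± 0.08, SE; limma adjusted p = 2.17e-05). The other MMP2 probe sets had log2 differences of 0.06 and -0.02 and did not pass. Of the 3, 201069_at alone is listed with a RefSeq transcript of MMP2.

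MMP14, the membrane-anchored protease, fell on all 4 of its probe sets. The brightest, 160020_at, read 10.93, 10.88 and 10.85 in the mimic arrays and 11.08, 11.17 and 11.09 in the control arrays. The groups did not overlap, but the difference was small (-0.23 ± 0.06, SE; limma adjusted p = 0.0191). This call was lost after quantile normalization again (limma adjusted p = 0.115). It was also lost without mimic replicate 2 (0.0751), mimic replicate 3 (0.0551) or control replicate 2 (0.0796). Over 12 other settings the adjusted p of 160020_at ran from 0.00497 to 0.115. The probe sets 202827_s_at and 202828_s_at fell by more, with log2 differences of -0.58 and -0.39, and were called under all 12 other settings.

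MMP1, a collagenase, read 5.23, 5.21 and 5.12 in the mimic arrays and 5.20, 5.27 and 5.11 in the control arrays, with complete overlap. The 95% interval of its log2 difference ran from -0.16 to 0.14. Its level lay below the array medians, and in the control arrays it ranked at 9.27% of probe sets counted from the dimmest. MMP9, the other gelatinase gene, read 7.99, 7.88 and 7.84 in the mimic arrays and 7.89, 7.67 and 7.96 in the control arrays. These groups overlapped too, and the interval ran from -0.12 to 0.25. Neither interval shows that the levels were equal.

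**Figure D3:**
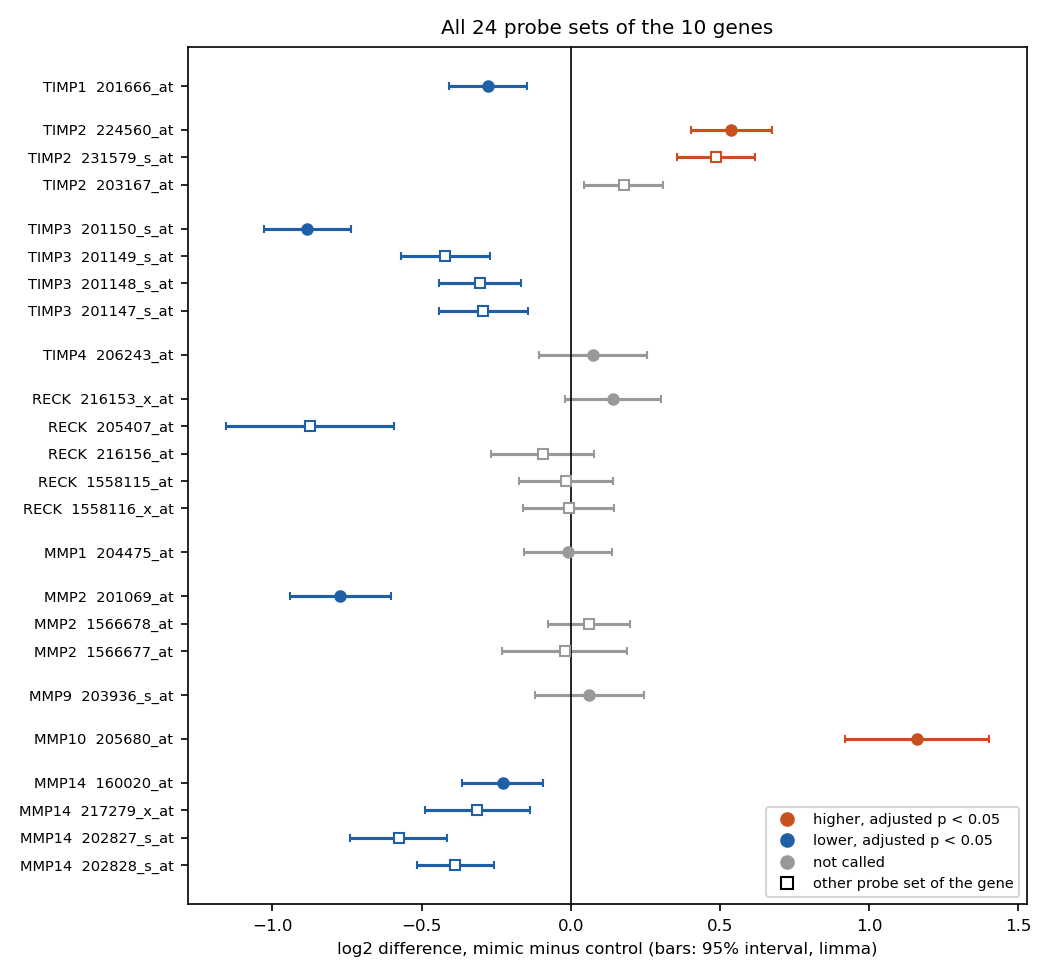
Log2 difference, mimic minus control (horizontal axis), with 95% intervals from limma, at all 24 probe sets (vertical axis); filled circles are the brightest probe set of each gene and open squares the others. Of the 24 probe sets, 3 were called higher, 11 lower and 10 not called, and the calls are the same for all probe sets of TIMP3 and of MMP14 and differ among those of RECK, MMP2 and TIMP2.

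Counted by probe set, 3 of the 24 rose and 11 fell, against 11.6% higher and 13.1% lower (24.8% in all) of the probe sets tested. Probe sets of 1 gene share their transcript and are not independent. Of the 10 probe sets listed with a RefSeq transcript, 1 for each gene, 5 fell, 1 rose and 4 did not pass. Read at these probe sets, a choice made after seeing the data, RECK joined the lower genes and TIMP2, at 0.18, was not called. The log2 ratio of 2 probe sets within an array differed between mimic and control by -1.02 for RECK (205407_at over 216153_x_at), by -0.83 for MMP2 (201069_at over 1566678_at) and by -0.36 for TIMP2 (203167_at over 224560_at). These pairs were chosen after their probe sets were seen to differ, so the ratios are given as a description.

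The promoters of MMP10 and TIMP3, the genes with the largest rise and fall, are printed to show how the letters before their starts differ. They are the 250 bases before the RefSeq start (GRCh38.p14), at chr11:102780629-102780878 on the minus strand for MMP10 and at chr22:32801455-32801704 on the plus strand for TIMP3. Capitals mark matches on either strand to 3 motifs. The core of the AP-1 motif was searched as TGANTCA. The letters of the TATA box were TATAAA. Those of the GC box were GGGCGG. No 2 of the matches overlap.
MMP10: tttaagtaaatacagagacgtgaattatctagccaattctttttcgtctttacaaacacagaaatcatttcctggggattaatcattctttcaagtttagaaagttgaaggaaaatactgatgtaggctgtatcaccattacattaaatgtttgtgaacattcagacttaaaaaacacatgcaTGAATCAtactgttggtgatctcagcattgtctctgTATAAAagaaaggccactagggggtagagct
TIMP3: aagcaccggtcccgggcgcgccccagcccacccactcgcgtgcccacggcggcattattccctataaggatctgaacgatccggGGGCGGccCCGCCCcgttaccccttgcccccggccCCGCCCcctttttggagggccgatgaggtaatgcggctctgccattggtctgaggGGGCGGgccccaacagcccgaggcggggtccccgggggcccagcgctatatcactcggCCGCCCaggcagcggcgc
The MMP10 window held 1 AP-1 match, beginning 67 bases before the start, and 1 TATA box, beginning 31 bases before it, with no GC box. The TIMP3 window held 5 GC boxes and neither of the other motifs. Among 35116 promoters of the same length, 6.57% held the AP-1 letters, 10.7% the TATA box and 42.6% the GC box. G and C made up 34.4% of the MMP10 window and 72.4% of the TIMP3 window, against a median of 58.0%. The 4 other members with a promoter sequence, TIMP1, TIMP4, RECK and MMP14, held between 1 and 3 GC boxes and no AP-1 or TATA match. A match describes the letters and is no evidence of a factor at the site.

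In position, MMP10 and MMP1 are neighbours in a cluster of metalloproteinase genes on chromosome 11. Within 500000 bases of MMP10, 9 such genes were measured, in the order MMP7, MMP20, MMP27, MMP8, MMP10, MMP1, MMP3, MMP12 and MMP13. Of these 9, 3 rose and 0 fell in limma, and the other 6 had log2 differences from -0.02 to 0.14; this grouping was made after the values were seen. The genes that rose were MMP7, MMP10 and MMP13, which are not next to each other, and 14.1% of all genes rose. TIMP1, TIMP3 and TIMP4 each lie inside a synapsin gene (SYN1, SYN3 and SYN2), and these 3 had log2 differences from -0.06 to 0.11, none of which passed.

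Of the 17 other metalloproteinase genes measured, 2 rose and 1 fell, against 14.1% and 16.3% of all genes. Their median log2 difference was 0.09, against 0.03 for all genes. MMP7, or matrilysin, a protease typical of epithelia, rose from 9.06 ± 0.12 to 11.03 ± 0.07 (SD, n = 3 each), 3.90-fold higher in the mimic arrays (limma adjusted p = 1.44e-08). MMP13, a collagenase, rose 1.67-fold, from a mean of 6.56 to 7.30, both below the array medians. MMP28, also called epilysin, fell on all 5 of its probe sets. Its brightest probe set had a log2 difference of -0.45, and the other 4 had larger ones, from -0.79 to -1.88. When each gene was read as the average of its probe sets, 4 rose, MMP11 and MMP19 being added, and without the dimmest probe sets 1 did.

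Of 19 ADAM and ADAMTS genes, 1 rose and 6 fell (median -0.01), against 14.1% and 16.3% of all genes. These relatives shed cell surface proteins or cut matrix proteoglycans, and TIMP3 inhibits several of them. ADAM17, which releases tumour necrosis factor from the membrane, had a mimic mean of 9.58 ± 0.07 and a control mean of 10.30 ± 0.06 (SD, n = 3 each), and its 3 probe sets all fell. ADAM8 and ADAM15 had log2 differences of -0.63 and -0.58. ADAMTS15 was 3.03-fold higher in the mimic arrays on 1 of its 2 probe sets, and at the probe set listed with a RefSeq transcript it was not called (log2 difference 0.16, limma adjusted p = 0.156). ADAM12, named here after its values were seen, did not pass at its brightest probe set (0.02). At its others 3 of 4 fell, by up to 2.08 on the log2 scale.

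The plasminogen system makes plasmin, a serine protease that can activate metalloproteinase precursors. Of its 10 measured genes, 4 fell and 0 rose in limma (median -0.09), against 16.3% and 14.1% of all genes. With all probe sets averaged, however, S100A10 rose. PLAT and PLAU encode the plasminogen activators. PLAT was 4.03-fold higher in the control, at 10.23 ± 0.06 against 8.22 ± 0.13 (SD, n = 3 each), and PLAU 2.87-fold. SERPINE2, an inhibitor of these activators, was 2.38-fold higher in the control on 1 of its 2 probe sets, and SERPINF2, the plasmin inhibitor gene, 1.35-fold. The urokinase receptor gene PLAUR did not pass at its brightest probe set (-0.06) and fell by 0.59 at another.

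Of 17 genes for activators of metalloproteinases, their binding partners and other inhibitors, 6 rose and 6 fell (median 0.01). The shares over all genes were 14.1% higher and 16.3% lower. TFPI2, a protease inhibitor of the matrix, rose from 6.64 ± 0.15 to 7.64 ± 0.11 (SD, n = 3 each), and SPOCK1, a matrix proteoglycan, was 1.76-fold higher. PCOLCE2, an enhancer of procollagen processing, was 3.76-fold higher in the control. EFEMP1, or fibulin-3, which binds TIMP3, was 1.66-fold higher in the control, on 2 of its 3 probe sets. FURIN, a convertase that activates MMP14, was read by 1 probe set, and its log2 difference of 0.22 did not pass.

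Of 14 measured genes for matrix and cell surface substrates, 8 fell and 2 rose (median -0.31), against 16.3% and 14.1% of all genes. TNC and VCAN, large matrix proteins, were 2.56-fold and 2.51-fold higher in the control, TNC on 1 of its 3 probe sets. The syndecan genes SDC4 and SDC1 were 1.96-fold and 1.76-fold higher in the control. Fibronectin (FN1) was 1.44-fold higher in the mimic arrays, on all 7 of its probe sets, and LAMB3, a laminin chain, 1.37-fold higher. COL4A1 and COL4A2, the collagen IV chains that MMP2 cuts, fell by 0.35 and 0.27 on the log2 scale.

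**Figure D4:**
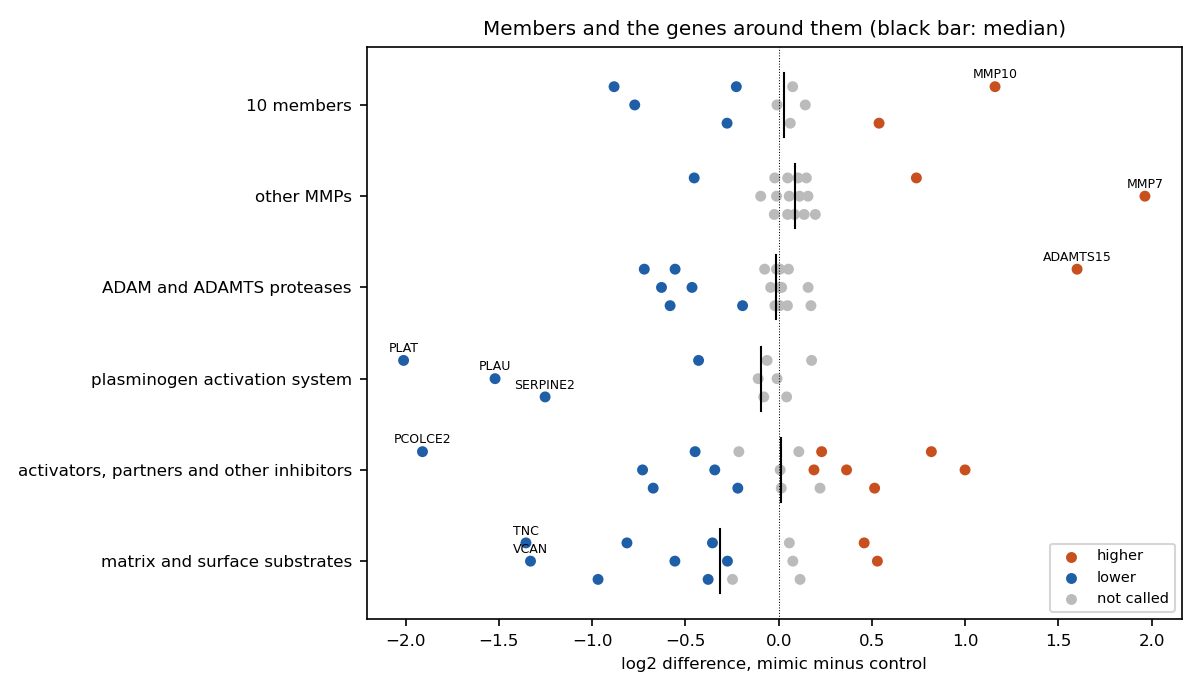
Log2 difference, mimic minus control (horizontal axis), of the 10 genes and of the genes in 5 related lists; each point is a gene at its brightest probe set, coloured by its call, and the black bars are medians. MMP7 (1.96) lies farthest to the right and PLAT (-2.01) farthest to the left; points with an absolute difference of at least 1 are named.

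Fibroblasts and blood cells also make these proteases and inhibitors. Of 9 fibroblast markers, 1 rose and 2 fell, and the log2 of their mean intensity ran from 10.75 to 10.83 in mimic arrays and from 9.68 to 9.77 in control arrays. DCN, the brightest of them, rose from 12.06 to 13.72 (means, n = 3 each), FAP and LUM fell and 6 were not called. The LUM means, 4.09 in mimic and 5.15 in control arrays, lay far below the array medians. The median log2 difference of the 9 was 0.06. The collagen genes COL1A1, COL1A2 and COL3A1 did not pass, with log2 differences from 0.06 to 0.11. Of 7 measured blood cell markers, CD14 fell and ITGAM rose, and the log2 of the mean intensity ran from 7.91 to 7.97 in mimic arrays and from 8.30 to 8.31 in control arrays. Of 6 endothelial markers, KDR fell (log2 difference -1.48) and 5 were not called. The log2 of their mean intensity ran from 8.13 to 8.22 in mimic arrays and from 8.35 to 8.49 in control arrays. Among all genes, 14.1% rose and 16.3% fell. All arrays were of the MCF10A line, and the labels name no other cells. The part of other cell types in the results above was not tested.

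By the root mean square distance over the 6 arrays after centring each gene on its mean, the genes most like TIMP3 were C6orf132, PRUNE1 and PEG10, at distances of 0.02 on the log2 scale. Those most like MMP10 were PNLIP, COL28A1 and UVRAG, at 0.07 to 0.11.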

How the data were processed

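The deposited values are log2 intensities to which the authors applied RMA, according to the submitters' processing notes. RMA is a method that corrects background, equalizes the distributions of the arrays and sums probes into probe sets. The range of the values showed their scale to be log2. The version run is not given in the sources used here. After RMA, a shift in the total mRNA of a cell cannot be seen. Of 54675 probe sets, 62 control probe sets were left out. Genes were named from the platform annotation by probe sets with 1 symbol (41091) and read at their brightest probe set over all arrays. The table was fitted with limma 3.58.1 (lmFit, eBayes) in R 4.3.3, mimic against control, with Benjamini-Hochberg adjustment over 54613 probe sets and a threshold of 0.05. Sequences were searched and figures drawn in Python 3.11.15. On simulated data for this comparison (54613 probe sets, 200 changed), limma recovered 63.0% at a log2 change of 0.5 and 97.0% at a change of 1. Of the simulated calls, 9 (5.3%) were false. In the measured data 24.8% of probe sets were called, a far larger share than was changed in the simulation. The recovered shares are therefore not the sensitivity of the calls reported here.

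The members and gene lists were chosen with earlier results of these data known. The text names all members, the most changed genes of each list (at most 4, past the threshold, without overlap between groups), genes that complete small counts, and the 3 most alike genes. PLAUR, ADAM12, FURIN, MMP11, MMP19, S100A10, COL4A1, COL4A2, the synapsin genes and the collagen and other marker genes were named outside that rule, after their values were seen. A few listed genes without a probe set of their own symbol were not analysed here. The other settings tried are described in the closing section; those for probe sets were the normalizations, the variance model, array weights, the replicate block, the filter on dim probe sets and leaving out each array.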

Additional observations from a re-analysis of the deposited data

How the results depend on the processing

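Among 157 alternative values of the 10 genes, 142 had the same direction and call as those reported. The count of members that rose (2) was 1 without the 40% dimmest probe sets, where MMP10 was not tested, 1 with a 1.5-fold minimum, and 1 at probe sets listed with a RefSeq transcript, where TIMP2 had an adjusted p of 0.0528. The count that fell (4) was 2 with the 1.5-fold minimum, which left 1723 of all genes in place of 6013. Leaving out each array gave 2 to 3 members higher and 3 to 4 lower. RECK turned to -0.17 with its probe sets averaged and to -0.87 at probe sets without x_at or s_at, or listed with a RefSeq transcript; the alternatives read other probe sets. Values near 0 that never passed also changed sign: leaving out 1 array at a time gave -0.013 to 0.13 for TIMP4, -0.024 to 0.12 for MMP9 and -0.050 to 0.029 for MMP1. The lowest TIMP4 and MMP9 values and the highest MMP1 value came without control replicate 2. MMP14 lost its call as given above and at an adjusted p under 0.01. Of 170 counts of the 5 related lists, 160 stayed within 1.5 times. The probe sets listed with a RefSeq transcript were chosen as an alternative after seeing the data. The number of arrays, and dim values with no detection calls, limit the precision.

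With the replicate number as a block, 2 members rose and 4 fell, and no member's call changed. The labels do not say that a number marks a shared batch. Deviations of same-numbered arrays from their group means correlated with r of -0.11, 0.08 and 0.08, and not every array correlated best with its own number. Deviations within a group of 3 arrays are tied to each other, so these values cannot tell whether a number marks a shared batch.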
